A study of Sus scrofa with 8 samples.

Results

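Mitochondrial ribosomal protein genes were followed in the right ventricular free wall of pigs with and without a band on the pulmonary artery. The members were all genes whose name in the authors' deposited comparison table (or, for 3 of them, the name of the one-to-one human orthologue) begins with MRPL or MRPS and a digit, and which had 10 or more counts in 4 or more of the 8 libraries. Of 71 genes with such a name, 69 passed, 42 named MRPL for the large ribosomal subunit and 27 named MRPS for the small one, out of 31908 gene models in the count table. All 69 were among the 13697 genes with enough counts to be tested.

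Total RNA was sequenced in bulk from frozen tissue, with 1 deposited library per animal. The banded group held 4 castrated male Yorkshire cross piglets, operated on at a mean age of 4.5 ± 0.6 weeks and a mean weight of 6.4 ± 1.3 kg, in which a tape around the main pulmonary artery was tightened to a right ventricular systolic peak of about 30 to 40 mmHg. The control group held 4 untreated pigs of similar age and weight kept for 8 weeks. The labels name no sham operation and no sex for the controls, and how long the band was in place is not stated in them. The replicate numbers below only name the animals and pair none of them.

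Mitochondria carry their own ribosome, which translates the few respiratory chain proteins encoded in mitochondrial DNA. Its ribosomal RNAs come from the mitochondrial genome, whereas all of its proteins are encoded in the nucleus, made in the cytosol and imported. Some of these proteins descend from bacterial ribosomal proteins and others are found only in mitochondrial ribosomes, and the heart, a tissue rich in mitochondria, depends heavily on this machinery.

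No member changed between the groups by the edgeR quasi-likelihood test at an adjusted p of 0.05. Of all genes tested, 6.97% passed that threshold, 3.47% higher and 3.5% lower in the banded animals. The log2 fold changes of the members, banded over control, ran from -0.44 for MRPL28 to 0.51 for MRPL40, with a median of 0.09 against 0.02 over all genes tested. A positive value was fitted for 49 of the 69 (71.0%, against 51.6% of all genes), and 42 of the 69 lay within 0.2 of zero. The share positive was 69.5% for cytosolic ribosomal proteins and 54.4% for nuclear respiratory chain subunits. With scaling by library size alone, which moved the median of all genes to -0.09, the member median was -0.01 with 34 of 69 positive, and the gap between the 2 medians stayed at 0.08. The 95% interval lay within a 2-fold change in either direction for 67 members, the exceptions being MRPL28 (-1.55 to 0.67) and MRPL57 (-0.09 to 1.05). It lay within a 1.5-fold change for 50 members, 72.5% of them, against 31.8% of all genes tested. That share was 79.7% for cytosolic ribosomal proteins and 66.2% for nuclear respiratory chain subunits. The median standard error of a member was 0.15 on the log2 scale, against 0.21 over all genes. In bulk tissue, fewer cells of a type and less RNA per cell cannot be told apart, so these are levels relative to the RNA of the whole sample.

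**Figure D1:**
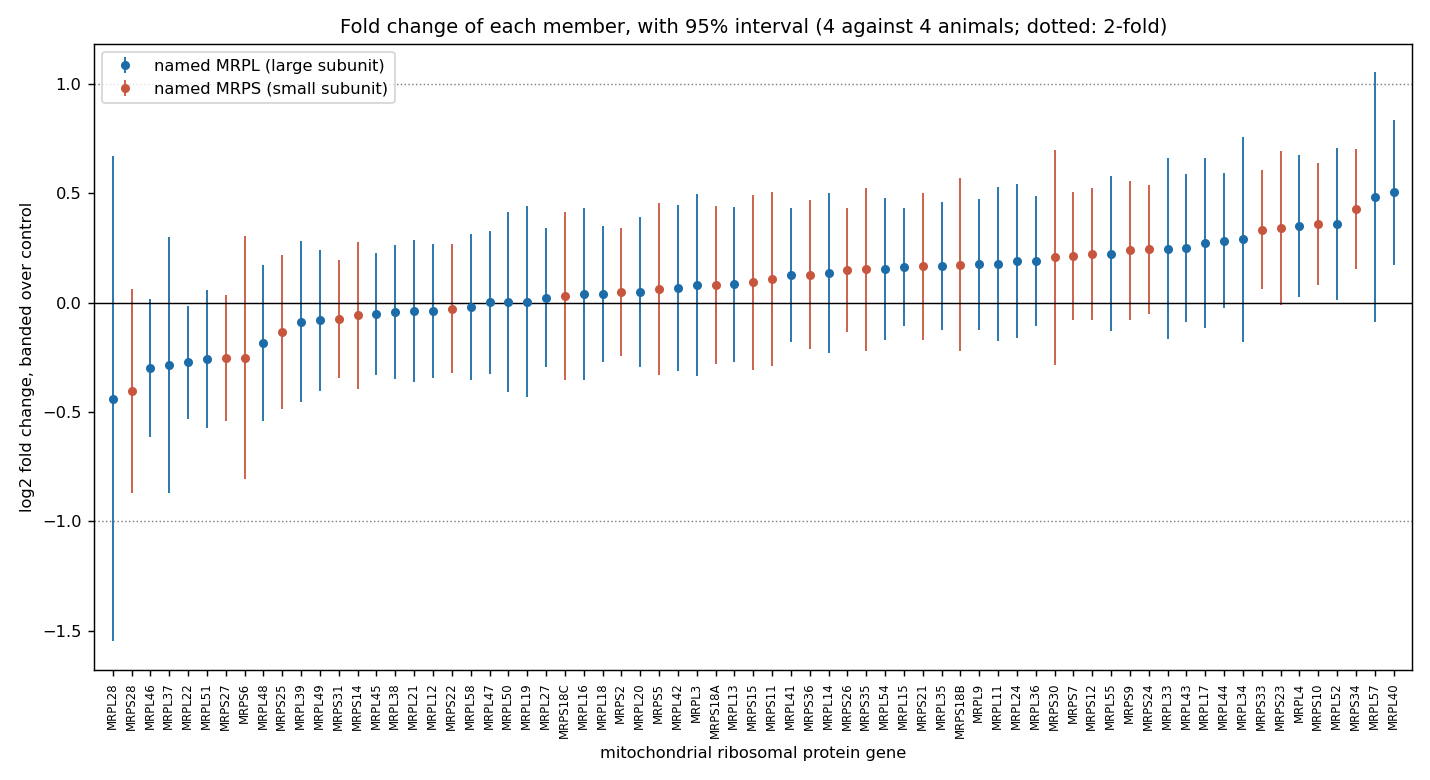
Log2 fold change of each of the 69 members, banded over control (vertical axis), with its 95% interval, ordered from lowest to highest; blue marks genes named MRPL and red those named MRPS, and dotted lines mark a 2-fold change. Points run from -0.44 (MRPL28) to 0.51 (MRPL40), and only MRPL28 and MRPL57 have intervals that cross a dotted line.

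Other tests gave few calls. At an unadjusted p of 0.05 the edgeR test gave 7 members (MRPS34, MRPL40, MRPS10, MRPS33, MRPL4 and MRPL52 higher, MRPL22 lower), where 23.8% of all genes passed (12.1% higher and 11.7% lower). With DESeq2, 2 members passed at an adjusted p of 0.05, MRPL40 at 0.045 and MRPS34 at 0.0468, where 10.3% of all genes did. With limma-voom and sample quality weights MRPS34 passed alone, at 0.0478, where 9.86% of all genes did. In the authors' deposited table no member had an adjusted p under 0.05, where 10.6% of all genes with a value did. The member nearest to it in the authors' deposited table was MRPS34, with an adjusted p of 0.0708 and a value of -0.42, which is log2 of control over banded there. The 2 genes that these tests single out are taken first.

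MRPS34, a small subunit protein found only in mitochondrial ribosomes and one whose loss destabilises that subunit, is encoded on chromosome 3 (40193232 to 40196868, Sscrofa11.1). Its level in CPM (counts relative to the library total, scaled by TMM) was 15.6, 17.1, 14.9 and 13.7 in the 4 controls, and 21.0, 21.6, 21.1 and 18.7 in the 4 banded animals. Every banded animal was above every control. The log2 fold change was 0.43 ± 0.13 (SE), and the adjusted p by edgeR was 0.0648. This gene model shares 31.0% of its exon bases with NME3 on the same strand, and reads there cannot be assigned to either gene.

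MRPL40, a large subunit protein, is encoded on chromosome 14 (51102613 to 51105767) and shares no exon bases with another gene model on its strand. The controls had 33.4, 34.3, 35.5 and 41.0 CPM, and the banded animals 46.1, 39.8, 60.0 and 59.0 CPM. Control 4 lay above banded 2, and the other 3 banded animals lay above all controls. The log2 fold change was 0.51 ± 0.15 (SE), with an adjusted p by edgeR of 0.0683. Without banded 2 it was 0.61 with an adjusted p of 0.0348 by edgeR. MRPL40 was the only member past the threshold in that fit, in which 5.22% of all genes passed. It did not pass when any other library was left out. The adjusted p by edgeR then ran from 0.072 without control 4 to 0.182 without control 1.

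The groups did not overlap for 4 members, all of the small subunit and all higher in the banded animals: MRPS34, MRPS10, MRPS33 and MRPS24. That is 5.80% of the members, whereas 15.9% of all genes tested had groups that did not overlap (7.66% higher and 8.2% lower). These counts depended on the scaling. With library size alone, 1 member was higher without overlap, MRPL40, and 4 were lower, MRPL46, MRPS27, MRPL22 and MRPS31, while 5.24% of all genes were higher and 8.4% lower. MRPS10, a counterpart of bacterial protein S10, had 31.3, 29.9, 25.1 and 30.8 CPM in the controls and 34.6, 34.1, 42.4 and 39.1 CPM in the banded animals (log2 fold change 0.36 ± 0.13 SE, adjusted p 0.112 by edgeR). MRPS33, found only in mitochondrial ribosomes, had 41.4, 36.3, 32.8 and 41.3 CPM among controls and 43.5, 50.8, 45.2 and 51.9 CPM in the banded animals. Its log2 fold change was 0.33 ± 0.12 (SE), with an adjusted p of 0.132 by edgeR. MRPS24, a counterpart of bacterial S3, which lies at the entry of the mRNA channel, had 30.4, 29.9, 31.8 and 31.2 CPM in the controls and 34.6, 32.0, 33.6 and 45.9 CPM in the banded animals. The lowest banded value, 32.0 CPM, lay just above the highest control, 31.8 CPM, and the adjusted p was 0.30 by edgeR. In a further 13 members (18.8%, against 10.7% of all genes) 3 of the 4 banded animals were above all controls, and in 6 members (8.7%, against 10.9%) 3 were below all controls.

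Among the other members with large positive values, MRPL4, a protein at the wall of the peptide exit tunnel, averaged 39.0 ± 5.02 CPM in the controls, while the banded animals averaged 49.8 ± 8.46 CPM (SD, n = 4 in either group). MRPL52 averaged 21.6 ± 3.03 and 27.7 ± 4.97 CPM, and MRPS23 25.4 ± 5.06 and 32.2 ± 4.11 CPM. Their log2 fold changes were 0.35, 0.36 and 0.34, with adjusted p-values by edgeR of 0.175, 0.194 and 0.226. MRPL57 was a low gene, at 4.34, 2.76, 2.11 and 3.40 CPM in controls, against 5.37, 3.75, 4.02 and 4.48 CPM in the banded group. Its log2 fold change of 0.48 ± 0.26 (SE) was correspondingly imprecise. In all 4 the groups overlapped.

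Negative values were smaller in number. MRPL22, another protein of the exit tunnel wall, had 60.2, 55.4, 54.4 and 61.5 CPM in the controls and 54.7, 42.7, 48.3 and 45.9 CPM in the banded animals. Banded 1 lay within the control range and the other 3 below it. The log2 fold change was -0.27 ± 0.12 (SE), with an adjusted p of 0.187 by edgeR. MRPL46 had 25.2, 22.4, 21.2 and 31.1 CPM in controls, against 22.2, 19.0, 19.8 and 20.3 CPM in the banded group (-0.30, adjusted p 0.232 by edgeR). Its neighbour MRPS11, on the other strand of chromosome 1 with a start 351 bases away, had a value of 0.11 (adjusted p 0.769 by edgeR), so this pair of members sharing a start region had fitted values of opposite sign. MRPS28, a small subunit protein, averaged 16.6 ± 3.50 CPM in controls and 12.6 ± 3.33 CPM in the banded group (-0.40 ± 0.21 SE, adjusted p 0.278 by edgeR). MRPS27, an RNA-binding protein of the pentatricopeptide repeat type, MRPS6 and MRPL51 had values of -0.25, -0.25 and -0.26, with adjusted p-values by edgeR of 0.273, 0.592 and 0.312. MRPL48 had -0.18 and MRPL37 -0.28, the latter resting on control 4, at 77.8 CPM against 36.3 to 38.6 CPM in the other controls. Without control 4 the value of MRPL37 was 0.06.

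Levels between genes were compared per length, as TPM, a length-corrected share of all transcripts computed from the deposited counts and gene lengths. The members spanned control means from 0.18 TPM (MRPL28) to 163 TPM (MRPS21), with a median of 20.7 TPM in controls and 23.6 in banded animals. The medians over all genes tested were 4.09 and 3.94 TPM, those of the nuclear respiratory chain subunits 188 and 187 TPM, and those of the cytosolic ribosomal proteins 378 and 394 TPM. In controls 38 of the 69 members lay between 10 and 50 TPM. The 5 highest members held 32.4% of the summed TPM of all 69 in controls and 31.1% in banded animals.

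MRPS21, a counterpart of bacterial S21, was at 163 ± 7.45 TPM in controls and 179 ± 17.2 TPM in the banded group (SD over 4 animals). MRPL51 was at 162 ± 22.1 and 131 ± 12.7 TPM, and MRPL12, the stalk protein that contacts translation factors, at 159 ± 26.8 and 149 ± 11.8 TPM. These neighbours in the control order did not differ beyond their spread. MRPS15 followed at 118 ± 8.91 and 123 ± 23.5 TPM, MRPL33 at 93.0 ± 15.2 and 109 ± 3.71 TPM, and MRPS26 was the third highest of the small subunit in banded animals (52.3 ± 6.64 and 56.9 ± 12.4 TPM). At the low end were MRPL28, MRPS30 at 1.04 ± 0.152 and 1.20 ± 0.291 TPM, MRPS14 at 2.93 ± 0.267 and 2.79 ± 0.336 TPM, MRPS18C at 4.01 ± 0.119 and 3.97 ± 0.550 TPM, MRPS27 at 4.2 ± 0.279 and 3.45 ± 0.526 TPM, and MRPL13 at 4.25 ± 0.304 and 4.38 ± 0.660 TPM. The gene model of MRPS30 has 13320 exon bases, the most of any member (range 408 to 13320, median 2149), and a per-length level depends on that model. The order was similar in both groups, and the largest moves were these: MRPS6 moved from rank 26 to 35, MRPL46 from 18 to 26, MRPS28 from 23 to 30 and MRPS10 from 28 to 21.

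**Figure D2:**
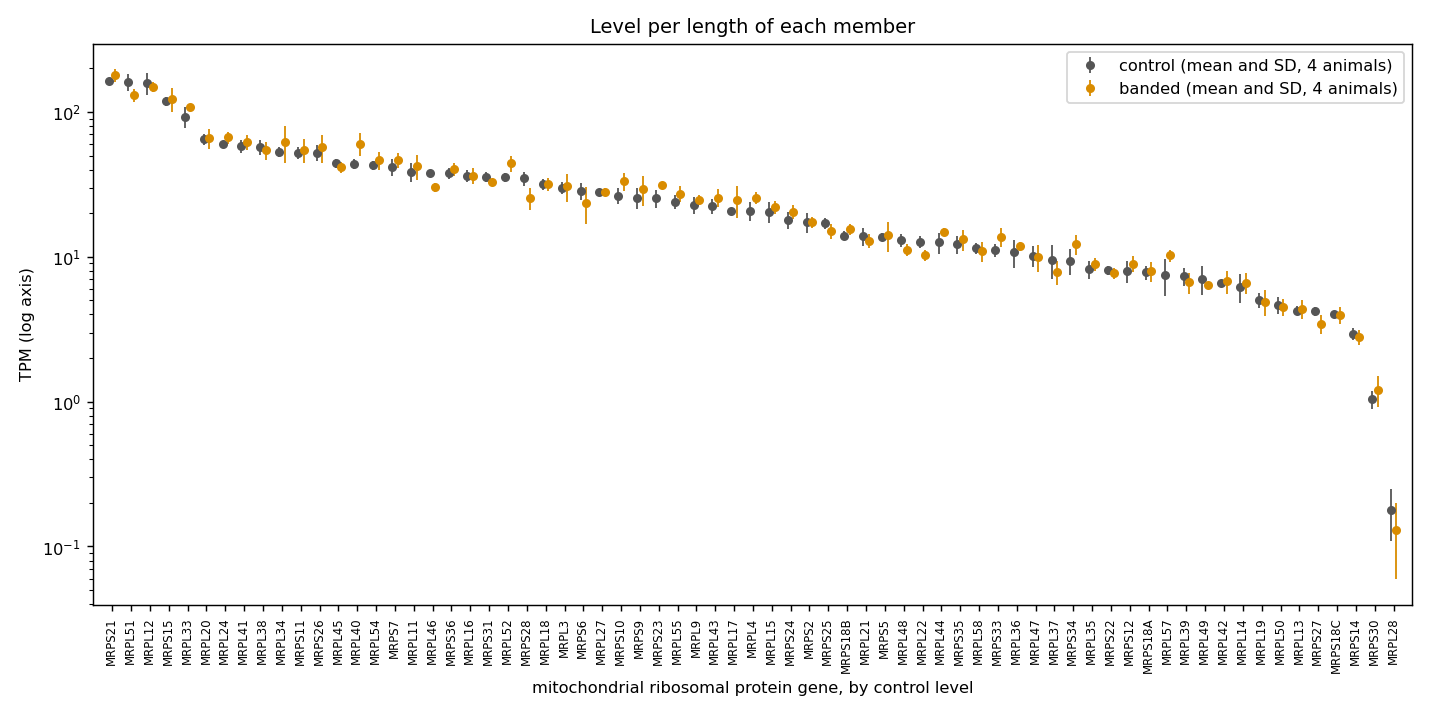
Level per length (TPM, log axis) of each member in controls (grey) and banded animals (orange), mean and SD over 4 animals, ordered by the control level. Control means run from 163 TPM for MRPS21 to 0.18 TPM for MRPL28, and the banded points follow the same order closely.

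Several members have a known link to heart disease or an unusual place in the ribosome. MRPL3, MRPL44 and MRPS22 are genes in which human mutations have been linked to cardiomyopathy. MRPL3 averaged 36.4 ± 4.96 CPM in controls and 38.5 ± 10.4 CPM in the banded group, MRPL44 13.7 ± 1.42 and 16.7 ± 1.83, and MRPS22 36.7 ± 2.74 and 36.1 ± 5.75 (SD, n = 4). Their log2 fold changes of 0.08, 0.28 and -0.03 had adjusted p-values by edgeR of 0.842, 0.247 and 0.931, and the groups overlapped in each. MRPS12, a protein of the decoding centre, was at 11.8 ± 0.850 and 13.8 ± 1.38 CPM (0.22, adjusted p 0.359 by edgeR). MRPL12 was at 99.2, 88.0, 79.8 and 82.5 CPM in controls, against 91.5, 76.0, 72.1 and 101 CPM in the banded group (-0.04, adjusted p 0.905 by edgeR).

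MRPS18A, MRPS18B and MRPS18C are paralogues of a single bacterial protein, S18, of which the first sits in the large subunit despite its name. Their fitted log2 fold changes were 0.08, 0.17 and 0.03, and none passed the test. Per length, MRPS18B was at 14.0 ± 1.01 TPM in controls, MRPS18A at 7.80 ± 0.898 and MRPS18C at 4.01 ± 0.119, an order kept in the banded animals at 15.5, 7.94 and 3.97 TPM. MRPS30, likewise part of the large subunit in ribosome structures, had a log2 fold change of 0.21 ± 0.22 (SE). MRPS36, now known mainly as a subunit of the 2-oxoglutarate dehydrogenase complex, was at 53.5 ± 8.54 and 58.4 ± 9.99 CPM (0.13, adjusted p 0.667 by edgeR).

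By origin, 38 members were listed as having a bacterial counterpart, with a median log2 fold change of 0.10 and 32 positive. The other 31, MRPS28 (-0.40) among them, had a median of 0.07 with 17 positive. Over all genes tested 51.6% were positive. With library size alone, which moved the median of all genes to -0.09, 19 of the 38 and 15 of the 31 were positive. Without banded 4 the numbers were 22 and 15. The members named MRPL had a median of 0.07 with 29 of 42 positive, and those named MRPS 0.13 with 20 of 27 positive. With library size alone 19 of 42 and 15 of 27 were positive. The summed TPM of members named MRPS over that of members named MRPL was 0.570, 0.585, 0.567 and 0.611 in the controls. In the banded animals it was 0.576, 0.604, 0.621 and 0.598. The ranges of this ratio overlap.

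Members shifted in a shared direction from animal to animal within each group, as did the nuclear respiratory chain subunits and cytosolic ribosomal proteins. The median of the 69 members, as the log2 of the CPM over the control mean, was -0.01, -0.03, -0.10 and 0.16 in controls 1 to 4, and 0.08, -0.15, 0.12 and 0.29 in banded 1 to 4. The same median over all genes tested stayed between -0.01 and 0.01, which TMM scaling largely fixes in advance. The number of members above their control mean was 33, 26, 10 and 56 in the controls and 45, 17, 50 and 61 in the banded animals. Banded 4 was above banded 2 in 64 of the 69 members, with a median log2 difference of 0.53, where 49.0% of all genes showed that order. Control 4 was above control 3 in 58 of 69, with a median difference of 0.28, where 50.5% of all genes did. The place of control 4 depended on the scaling, with TMM factors of 0.886 for control 4 and 1.12 for control 3. In CPM without TMM scaling the summed members were lower in control 4 (2370) than in control 3 (2450). Banded 4 (2656) stayed above banded 2 (2231) on that scale. With TMM scaling, control 4 gave the highest control value in 44 members, and banded 4 the highest banded value in 41. Banded 2 gave the lowest banded value in 54 members. Both name groups showed the same order. In banded 2 the median was -0.19 for members named MRPL and -0.12 for those named MRPS, and in banded 4 it was 0.28 and 0.34. The median coefficient of variation of a member within a group was 11.4% in controls and 17.3% in banded animals, and over all genes it was 16.1% and 22.0%. In control 4, 65 of 68 nuclear respiratory chain subunits and 58 of 59 cytosolic ribosomal proteins also lay above their control mean, and in banded 2, 4 of 68 and 12 of 59 did. The median of the cytosolic ribosomal proteins was -0.13, -0.08, -0.15 and 0.35 in controls 1 to 4 and -0.00, -0.12, 0.29 and 0.15 in banded 1 to 4.

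**Figure D3:**
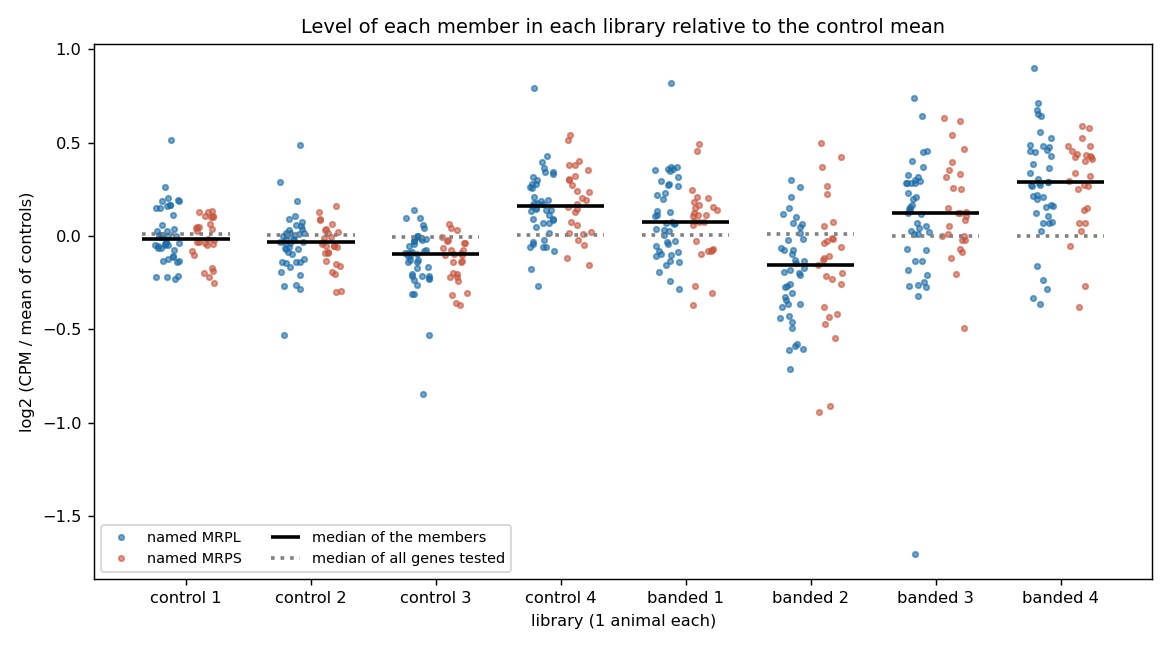
Level of each member in each library as log2 of its CPM over the mean of the controls (vertical axis), 1 column of points per animal, blue for MRPL and red for MRPS; the solid bar is the median of the 69 members and the dotted bar that of all genes tested. The member median is lowest in banded 2 (-0.15) and highest in banded 4 (0.29), with control 4 at 0.16. The dotted bars stay near 0, which TMM scaling largely fixes in advance.

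The median log2 fold change of the members accordingly depended on which animals were included. It was 0.20 without banded 2 and 0.01 without banded 4, and it was 0.04 without control 3 and 0.16 without control 4. Without banded 4 the median over all genes was also 0.01. The number of members whose groups did not overlap was 15 without banded 2 (21.7%, against 21.1% of all genes in that fit). It was 8, 9, 8 and 7 without control 1, control 4, banded 3 and banded 4 (11.6%, 13.0%, 11.6% and 10.1%, against 18.7%, 24%, 21.0% and 21.7% of all genes).

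Other measures moved with these animals, and their part in the member values was not tested. The summed level of 6 cardiomyocyte markers (of 9 listed) was 27752, 25197, 21664 and 29720 CPM in controls 1 to 4 and 37964, 30136, 40072 and 35174 CPM in banded 1 to 4, lowest within each group in the animals whose members were lowest. The banded sums all lay above the control sums, but the median log2 fold change of the 6 markers was 0.03, and 1 of the 6 was higher at an adjusted p of 0.05 by edgeR. The 6 fibroblast markers summed to 3569 to 4804 CPM in controls, against 3226 to 5667 CPM in the banded group, highest in banded 2 and lowest in banded 4, whereas among controls the highest was control 4. The 6 macrophage markers summed to 332 to 538 and 540 to 1020 CPM, highest in banded 2 among banded animals, with control 3 at 456 CPM and control 4 at 530 CPM. The erythroid markers summed to 1781 CPM in banded 4 and to 74.5 to 321 CPM in the other animals, the adipocyte markers to 292 CPM in banded 1 against 3.71 to 32.2 CPM, and the smooth muscle and pericyte markers to 2275 CPM in banded 3 against 741 to 1197 CPM. Endothelial markers summed to 528 to 684 CPM, and lymphocyte markers to 17.8 to 40.6 CPM, lowest in banded 4.

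Depth was 31033679 to 34183338 counts per library, of which the mitochondrial genome took 38.3% ± 3.9 of the controls and 36.3% ± 4.2 of the banded group (SD, n = 4), with 43.9% in control 4 and 30.5% in banded 3. The counts of some mitochondrial genes set controls 1 to 3 apart from all other libraries: MT-ATP8 had 40 to 46 counts there, against 94998 in control 4 and 60815 to 85243 in the banded animals. MT-ND1 had 141124 to 147921 counts in controls 1 to 3, against 976911 in control 4 and 601236 to 815220 in the banded animals.

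The summed level of all 69 members overlapped between the groups on each scale used, and its direction depended on the scale. With TMM scaling the sum was 2358, 2274, 2193 and 2675 CPM in the controls and 2468, 2070, 2605 and 2899 CPM in the banded animals, or 2375 ± 211 and 2510 ± 344 (SD, n = 4 each). As CPM of all counts without TMM scaling it was 2450 ± 63.9 for controls and 2413 ± 190 for banded animals. As CPM of the counts outside the mitochondrial genome it was 3977 ± 172 and 3798 ± 397. Summed TPM was 2147 ± 116 and 2224 ± 162. Control 4 was the highest control by TMM-scaled CPM and the lowest control by unscaled CPM.

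**Figure D4:**
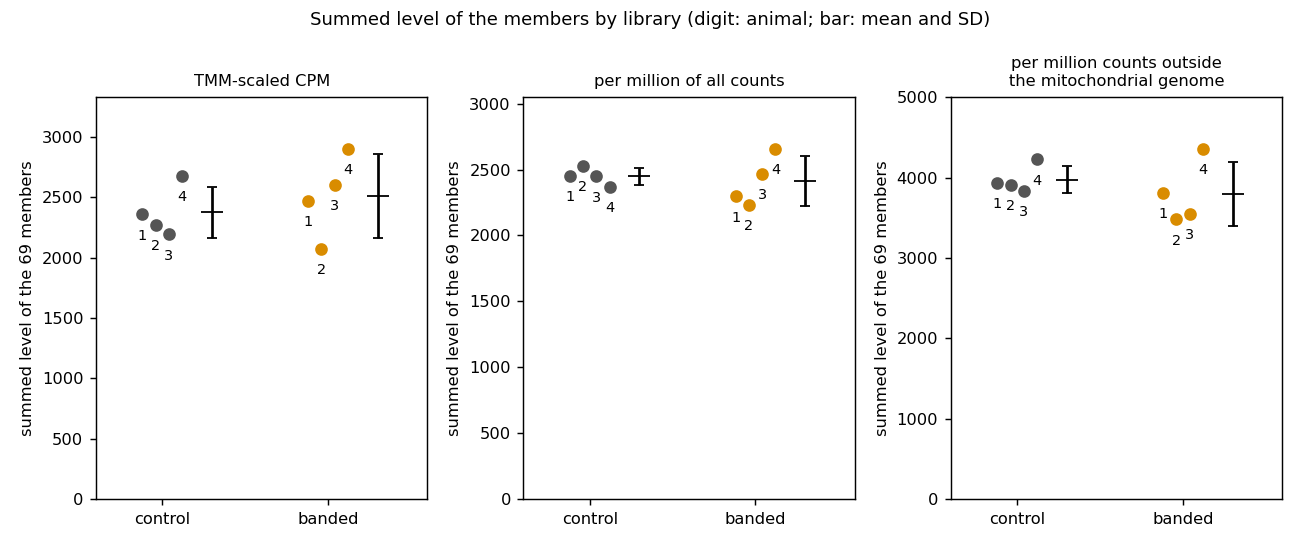
Summed level of the 69 members in each animal (points, labelled by replicate number) with the mean and SD of each group, in TMM-scaled CPM, in unscaled CPM of all counts, and in CPM of the counts outside the mitochondrial genome. The groups overlap in all panels, and the banded mean is above the control mean only in the TMM panel (2510 against 2375).

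The remaining parts of the mitochondrial translation system were read from lists of genes. Of the mitochondrial ribosomal proteins whose names do not begin with MRPL or MRPS, PTCD3, AURKAIP1, CHCHD1 and GADD45GIP1 were tested, and none was called (median log2 fold change -0.08). DAP3, a small subunit protein, had 0 to 8 counts and was not tested. Of 26 genes for assembly of the mitochondrial ribosome and modification of its RNA, 1 was higher and none lower (3.85%, against 6.97% of all genes). The median was 0.04. That gene was MPV17L2, an inner membrane protein needed for assembly of the ribosome, which was at 6.51, 5.13, 4.72 and 6.70 CPM in controls and 8.66 to 12.9 CPM in the banded group, with means of 5.77 ± 0.988 and 10.9 ± 1.74 CPM (SD, n = 4). All banded values were above all controls, with a log2 fold change of 0.92 ± 0.19 (SE) and an adjusted p of 0.0157 by edgeR. Without control 2 or control 3 the adjusted p was 0.0592 or 0.0589.

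Of 17 genes for upkeep and transcription of mitochondrial DNA and processing of its RNA, 1 was higher (5.88%) and none lower (median -0.01). This was GRSF1, an RNA-binding protein of mitochondrial RNA granules, at 68.2, 67.8, 63.2 and 76.4 CPM in controls, against 98.8, 99.6, 99.4 and 105 CPM in the banded group. The banded values were close to each other and above all controls, with a log2 fold change of 0.55 ± 0.11 (SE) and an adjusted p of 0.0157 by edgeR. Without control 1, 2 or 3 the adjusted p was 0.0592, 0.0602 or 0.0692. Neither of the lists of 17 translation factors with mRNA-binding proteins (median -0.03) and 18 tRNA synthetases and amidotransferase subunits (median -0.00) held a called gene. The 12 regulators of mitochondrial biogenesis also held none (median 0.04). These lists had 2, 1 and 3 genes at an unadjusted p under 0.05 by edgeR, named here after their values were seen. That is 6 of 47, or 12.8%, below the 23.8% of all genes. They were the translation initiation factor MTIF2 (-0.32) and the mRNA-binding protein LRPPRC (-0.29), the alanyl-tRNA synthetase AARS2 (-0.54), and the regulators PPARGC1A (-1.09), PPARGC1B (-0.84) and ESRRB (0.79). PPARGC1A, a coactivator that drives mitochondrial gene expression, averaged 90.9 ± 40.1 CPM in controls, against 42.7 ± 10.5 CPM in the banded group (SD, n = 4), with an adjusted p of 0.0634 by edgeR.

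The mitochondrial genome itself gave 1 called gene of 15 (6.67%, against 6.97% of all genes), with a median of -0.05. MT-ND6, the respiratory complex I subunit encoded on the strand opposite to the other protein genes, was at 177, 199, 205 and 162 CPM in controls, against 105, 110, 88.1 and 144 CPM in the banded group. All banded values were below all controls, with a log2 fold change of -0.73 ± 0.16 (SE) and an adjusted p of 0.0224 by edgeR. Without control 1, 2 or 3 or banded 1 the adjusted p was 0.0592, 0.0754, 0.0771 or 0.0537. As given above, controls 1 to 3 differed from all other libraries in their counts of MT-ATP8 and MT-ND1. What part this has in the values of the mitochondrial genome was not tested. The ribosomal RNAs that the member proteins bind were examined after their values had been seen. MT-RNR1, the small subunit RNA, was at 757, 671, 706 and 1087 CPM in controls, against 471, 375, 365 and 908 CPM in the banded group. Banded 4 lay within the control range and the other 3 below it (-0.60 ± 0.29 SE, adjusted p 0.243 by edgeR). Without banded 4 its value was -0.99 with an adjusted p of 0.0179. MT-RNR2, the large subunit RNA, was at 1545, 1253, 1505 and 2750 CPM in controls, against 1092, 891, 729 and 1785 CPM in the banded group (-0.65, adjusted p 0.238 by edgeR). How ribosomal RNA was removed before sequencing is not stated in the labels, so these are the ribosomal RNA reads that remained.

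Genes for the respiratory chain and for the cytosolic ribosome gave few calls either. Of 68 nuclear respiratory chain subunits none was called, where 6.97% of all genes were. At an unadjusted p under 0.05 by edgeR, 2 were higher and 1 lower, where 23.8% of all genes passed. The subunits had a median of 0.04. Their medians over the control mean by animal were 0.02, -0.11, -0.11 and 0.25 in controls and 0.05, -0.37, 0.09 and 0.21 in banded animals, lowest in banded 2 as for the members. Of 59 cytosolic ribosomal proteins 1 was higher (1.69%) and none lower, with a median of 0.08. That gene was RPS27L, an S27 paralogue, at 33.6 ± 3.03 CPM in controls and 51.4 ± 7.12 CPM in the banded group (0.61 ± 0.13 SE, adjusted p 0.0205 by edgeR). Without control 1, 2 or 3 its adjusted p was 0.0697, 0.0775 or 0.0643.

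**Figure D5:**
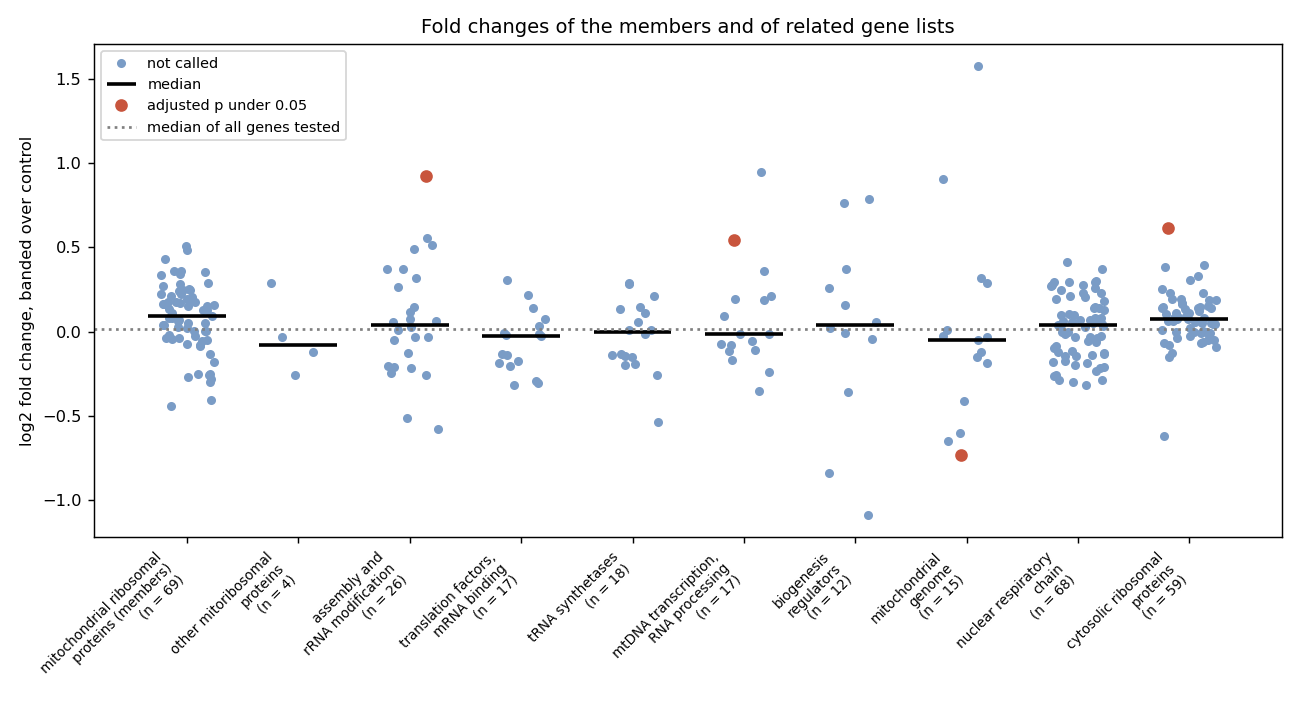
Log2 fold change, banded over control (vertical axis), of each tested gene of the members and of 9 related lists, with the number of tested genes under each name; bars are list medians, red points passed an adjusted p of 0.05, and the dotted line is the median of all genes tested (0.02). The members hold no red point, and the 4 red points elsewhere are MPV17L2, GRSF1, MT-ND6 and RPS27L.

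The members are spread over 17 chromosomes, with MRPL41 and MRPS2 on unplaced scaffolds. The start of 15 of the 69 lies within 1000 bases of the start of a gene model on the other strand that faces away from it (21.7%, against 14.8% of all genes tested). These pairs include MRPL46 with MRPS11, MRPL47 with NDUFB5 of respiratory complex I (52 bases between starts), MRPL35 with IMMT of the inner membrane (102 bases), and MRPS12 with SARS2, the mitochondrial seryl-tRNA synthetase (242 bases). MRPL40 faces away from HIRA, a histone chaperone gene (107 bases), which had a log2 fold change of 0.30 and an adjusted p of 0.334 by edgeR. MRPL22 faces away from GEMIN5 (36 bases), which had 0.01. NDUFB5 had 0.23 beside 0.00 for MRPL47, and IMMT had -0.31 beside 0.17 for MRPL35. The largest partner values were 1.90 for EME1 beside 0.02 for MRPL27, 1.01 for SKA3 beside 0.48 for MRPL57, and 0.82 for MTBP beside 0.08 for MRPL13. Their adjusted p-values by edgeR were 0.0643, 0.059 and 0.407. The lowest were -0.55 for an unnamed gene model beside MRPS31 and -0.48 for PNPLA7 beside MRPL41. A tested partner was present for 13 members, and none was called, where 6.97% of all genes were.

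At the edge of the rule, the genes left out were MRPS16, with 0 counts in all libraries, and MRPL10, with 0 to 9 counts. Their gene models share 58.4% and 90.2% of exon bases with DNAJC9 and OSBPL7 on the same strand. The member nearest the edge was MRPL28, with 8 to 39 counts and 67.9% of its exon bases shared with PGAP6, followed by MRPL57 with 75 to 170 counts and no shared bases. In all, 6 members share exon bases on the same strand (MRPS6, MRPL55, MRPL49, MRPS34, MRPL28 and MRPS18B), and the other 63 had the same median of 0.09. MRPL2 and MRPL30 carry those names only in the reference table of gene names and so fell outside the rule. Their log2 fold changes were -0.05 and 0.12, with adjusted p-values by edgeR of 0.903 and 0.70.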

How the data were processed

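Read pairs per gene were tallied by the authors using featureCounts 1.6.2, per the file headers (mapping quality of at least 10, strand setting 2) on Ensembl release 106 of Sscrofa11.1, in a command naming 24 libraries, of which 8 were analysed. The deposited counts are whole numbers without normalisation. The submitters' processing notes also name Trimmomatic, HISAT2, Subread and DESeq2, whose settings are not stated. The authors' deposited comparison table holds a mean normalised signal, the log2 ratio of control to banded, a Wald score, a p-value with its adjusted value, and the percent identity to the human protein. The model behind it is not stated.

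Banded was compared with control by the edgeR 4.0.16 quasi-likelihood F test (R 4.3.3, TMM, robust, filterByExpr with minimum count 10 and minimum total 15), two-sided, on all 13697 genes kept, adjusted by Benjamini-Hochberg, at a threshold of 0.05. CPM values are TMM-scaled. The TPM values were computed from counts and the deposited exon lengths. The fit was checked on simulated counts. Alternatives were DESeq2 1.42.0, limma 3.58.1 (voom), other scalings and filters, and leaving out each library. By counting error alone, a gene with 0 counts could reach 0.0878 to 0.0967 CPM, which is 3 counts. The labels give no pairing and no batch. Whether a library was prepared once or more per animal is not stated, so p-values measure the spread between these libraries.

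The members and gene lists were chosen with earlier results of these data known. Named members were those with the 8 largest positive and 8 deepest negative log2 fold changes at a mean of at least 1 CPM. Also named were those with the 3 highest and 2 lowest TPM of each name group (MRPL, MRPS) and the 3 largest coefficients of variation. A set of members with a known role was added, and from other lists the called genes. MRPS24, MRPL45, MRPL55, MRPL47, MRPL35, MRPS11, MRPS31, MRPL27, MRPL41, MRPL2 and MRPL30 were named after their values were seen. So were the ribosomal RNAs, the genes at an unadjusted p and the neighbouring genes. Mitochondrial ribosomal RNAs were matched by their RefSeq coordinates on the same build.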

Additional observations from a re-analysis of the deposited data

Results flagged for a closer look

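In groups of 4 animals, a value was singled out where its gap to the nearest of the others over the range of the group exceeded the 95% critical value of Dixon. This held in 6 of 156 groups tested, where chance gives about 1 in 20. MRPL37 was at 77.8 CPM in control 4, against 36.3 to 38.6 CPM in the other controls. MRPS21 was at 68.9 CPM in control 4, against 49.9 to 51.9 CPM, and MRPS22 at 40.8 CPM, against 35.1 to 35.6 CPM. MRPL45 was at 54.8 CPM in banded 4, against 41.4 to 42.9 CPM in the other banded animals. MRPL55 was at 23.8 CPM in banded 2, against 33.8 to 35.5 CPM. GRSF1 was at 105 CPM in banded 4, against 98.8 to 99.6 CPM. The share flagged was below what chance gives. The 5 flagged members lie in control 4, banded 4 or banded 2, which gave the highest or lowest value of their group in most members.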

How the results depend on the processing

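The number of genes called among all tested was 954, and 1629 with DESeq2. Members called were 0, and 2 with DESeq2 or 1 with limma-voom. The log2 ratio of summed member levels was 0.08 with TMM, -0.02 without that scaling and -0.066 over the counts outside the mitochondrial genome. With library size alone the all-gene median moved to -0.09 and the member median to -0.01, and the values of MRPL13 (-0.021), MRPL3 (-0.026), MRPS15 (-0.0072), MRPS18A (-0.033) and MRPS18C (-0.074) changed sign. With limma-voom MRPL3 (-0.0062) and MRPS14 (0.0073) did. Among the named genes, 386 comparisons with these and the other settings kept direction and side of the threshold.

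Leaving out 1 library gave 399 to 962 genes called (399, 415 and 409 without control 1, 2 and 3), 0 to 1 members called, 5 to 15 members whose groups did not overlap (7.25% to 21.7% of them, against 18.4% to 24% of all genes) and member medians of 0.01 to 0.20. Named members that changed sign ranged from -0.13 to 0.035 (MRPL12), -0.062 to 0.23 (MRPL3), -0.40 to 0.059 (MRPL37), -0.13 to 0.087 (MRPS14), -0.051 to 0.22 (MRPS18A), -0.12 to 0.15 (MRPS18C) and -0.14 to 0.045 (MRPS22). The cause was not tested.

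The subset of members sharing no exon bases, chosen after seeing the data, gave a median of 0.09. The planned count of promoter motifs was not run. No paired analysis was possible because the labels give the groups no shared replicate numbers. Depth limited MRPL28, with 8 to 39 counts.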
